A study of Mus musculus with 12 samples.

Results

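Matricellular proteins are secreted into the extracellular matrix, where they bind cells, growth factors and structural fibres rather than serving mainly as building material themselves. Genes of 9 such proteins, Postn, Tnc, Spp1, Sparc, Thbs1, Thbs2, Tgfbi, Ccn2 and Ccn1, are described here together with Fn1, which encodes fibronectin, a fibril-forming glycoprotein that many of them bind. They were chosen by name, 8 by the symbol listed and 2 by an older symbol kept in the same annotation, Ctgf for Ccn2 and Cyr61 for Ccn1, out of 25094 genes listed. Polyadenylated RNA of the gastrocnemius, a calf muscle, was sequenced in 2 inbred strains of mouse, BALB/c and C57BL/6, all males and wild type. The 4 groups of 3 libraries each were the right legs of BALB/c, the left legs of BALB/c, the right legs of C57BL/6 and the left legs of C57BL/6. In the right legs, labelled muscle atrophy, the sciatic nerve had been cut and its ends turned back and sutured to muscle, and all muscle was taken 2 weeks after surgery. The left legs are labelled healthy. A sham operation that only exposes the nerve is part of the protocol, but no label says whether a left leg had one. No age is given. The labels do not tie libraries to individual mice, so a p-value reflects the spread among these libraries, part or all of which may be technical.

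In adult muscle these genes are known mostly from fibroblasts, tendon and its junction with the fibres, and, for Spp1, macrophages. Many are low in resting tissue and are induced when tissue is injured, denervated or scarred. Transforming growth factor β and the mechanically regulated coactivators YAP and TAZ, which act through TEAD factors, are textbook inducers of several of them.

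Levels are given in RPKM, reads divided by transcript length and by the library's read total, a unit that allows levels of different genes to be compared. A change is the right-leg mean minus the left-leg mean of log2(RPKM + 0.5), given with its SE, and understates the change of low genes. Tests are limma's, two-sided, with p-values adjusted by Benjamini-Hochberg over all tested genes, and a gene is called at an adjusted p under 0.05. Library totals behind the RPKM ran between 18132600 and 19282900 reads, and 3 reads, used as the detection floor, correspond to 0.0199 to 0.117 RPKM for these genes, which covers counting error only. The median change of all tested genes was 0.38 in BALB/c and 0.52 in C57BL/6 on the log2 scale, so changes are also given relative to that median, and calls were repeated after rescaling the libraries by median-of-ratios factors, which brings it to 0.01 in both strains. The 6 genes used to check the denervation, among them Chrng, the fetal acetylcholine receptor subunit, summed to 539 to 769 RPKM in the right legs of BALB/c and 7.92 to 13.4 RPKM in the left. In C57BL/6 the sums were 800 to 990 RPKM in the right legs and 3.77 to 8.56 RPKM in the left. The 8 markers of skeletal muscle summed to 57690 to 82673 RPKM in the right legs of BALB/c and 104811 to 144405 RPKM in the left. Their sums were 72524 to 77932 RPKM in the right legs of C57BL/6 and 151486 to 164860 RPKM in the left. RNA came from whole muscle, so fewer cells of a type and less RNA per cell cannot be told apart.

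Promoter sequence was read for the 3 genes that stand for the patterns below: Postn, with the largest change of the 10 in C57BL/6, Ccn1, called in both strains and a textbook TEAD target, and Spp1, with the largest difference between the strains. The RefSeq promoter table (GRCm38.p6, another build than the mm9 positions of the genes) held 7 of the 10 genes. Each line gives the 250 bases before the transcription start, 5′ to 3′ on the gene's strand, with motif matches in capitals. The windows lie at chr3:54360857-54361106 on the plus strand for Postn, chr3:145649986-145650235 on the minus strand for Ccn1 and chr5:104434861-104435110 on the plus strand for Spp1.
Postn: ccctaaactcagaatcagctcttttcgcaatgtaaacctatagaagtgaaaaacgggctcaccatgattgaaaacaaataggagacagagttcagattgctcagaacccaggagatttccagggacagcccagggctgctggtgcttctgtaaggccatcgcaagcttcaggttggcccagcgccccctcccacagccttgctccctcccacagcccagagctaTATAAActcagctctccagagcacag
Ccn1: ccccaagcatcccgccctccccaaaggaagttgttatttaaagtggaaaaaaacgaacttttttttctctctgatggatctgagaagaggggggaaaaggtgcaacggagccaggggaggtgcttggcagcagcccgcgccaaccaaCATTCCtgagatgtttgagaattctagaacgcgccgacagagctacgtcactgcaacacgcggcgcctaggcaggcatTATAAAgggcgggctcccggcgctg
Spp1: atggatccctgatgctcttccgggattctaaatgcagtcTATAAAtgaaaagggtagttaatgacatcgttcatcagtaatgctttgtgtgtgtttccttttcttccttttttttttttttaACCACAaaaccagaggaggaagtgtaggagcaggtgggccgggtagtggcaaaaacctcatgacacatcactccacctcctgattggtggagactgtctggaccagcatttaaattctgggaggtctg
The capitals mark the TATA box letters TATAAA at position -26 in Postn, the TEAD core CATTCC at -103 and TATAAA at -25 in Ccn1, and the RUNX core ACCACA at -128 and TATAAA at -211 in Spp1, counted back from the start to the first base of the match. Both strands were searched, and no marked match overlapped another. Among 32536 promoter windows of the same length, 12.6% held CATTCC, 14.0% held ACCACA and 12.3% held TATAAA, so a match is a description of the letters and not a site. TATAAA was also found at -205 in Tnc and, on the reverse strand, at -126 in Thbs2, and none of the searched letters were in the windows of Sparc and Tgfbi. The AP-1 letters TGANTCA, held by 6.73% of all windows, were in none of the 7.

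The nerve-cut legs of C57BL/6 had more RNA of 9 of the 10 genes than the left legs, by 0.70 to 5.13 on the log2 scale, while those of BALB/c had more of 2, Postn and Ccn1, and less of 1, Sparc. Of all tested genes, 63.6% were called higher and 8.56% lower in C57BL/6, and 42.5% higher and 7.67% lower in BALB/c, so the share called higher lies below the background in BALB/c and above it in C57BL/6. The median change of the 10 was 0.29 in BALB/c, beside 0.38 for all tested genes, and 1.83 in C57BL/6, beside 0.52. After median-of-ratios rescaling 2 were called higher and 3 lower in BALB/c, where 21.8% and 19.2% of all tested genes were, and 8 higher in C57BL/6, where 28.2% were higher and 26.6% lower. All 10 passed the filter on low values in both strains.

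**Figure D1:**
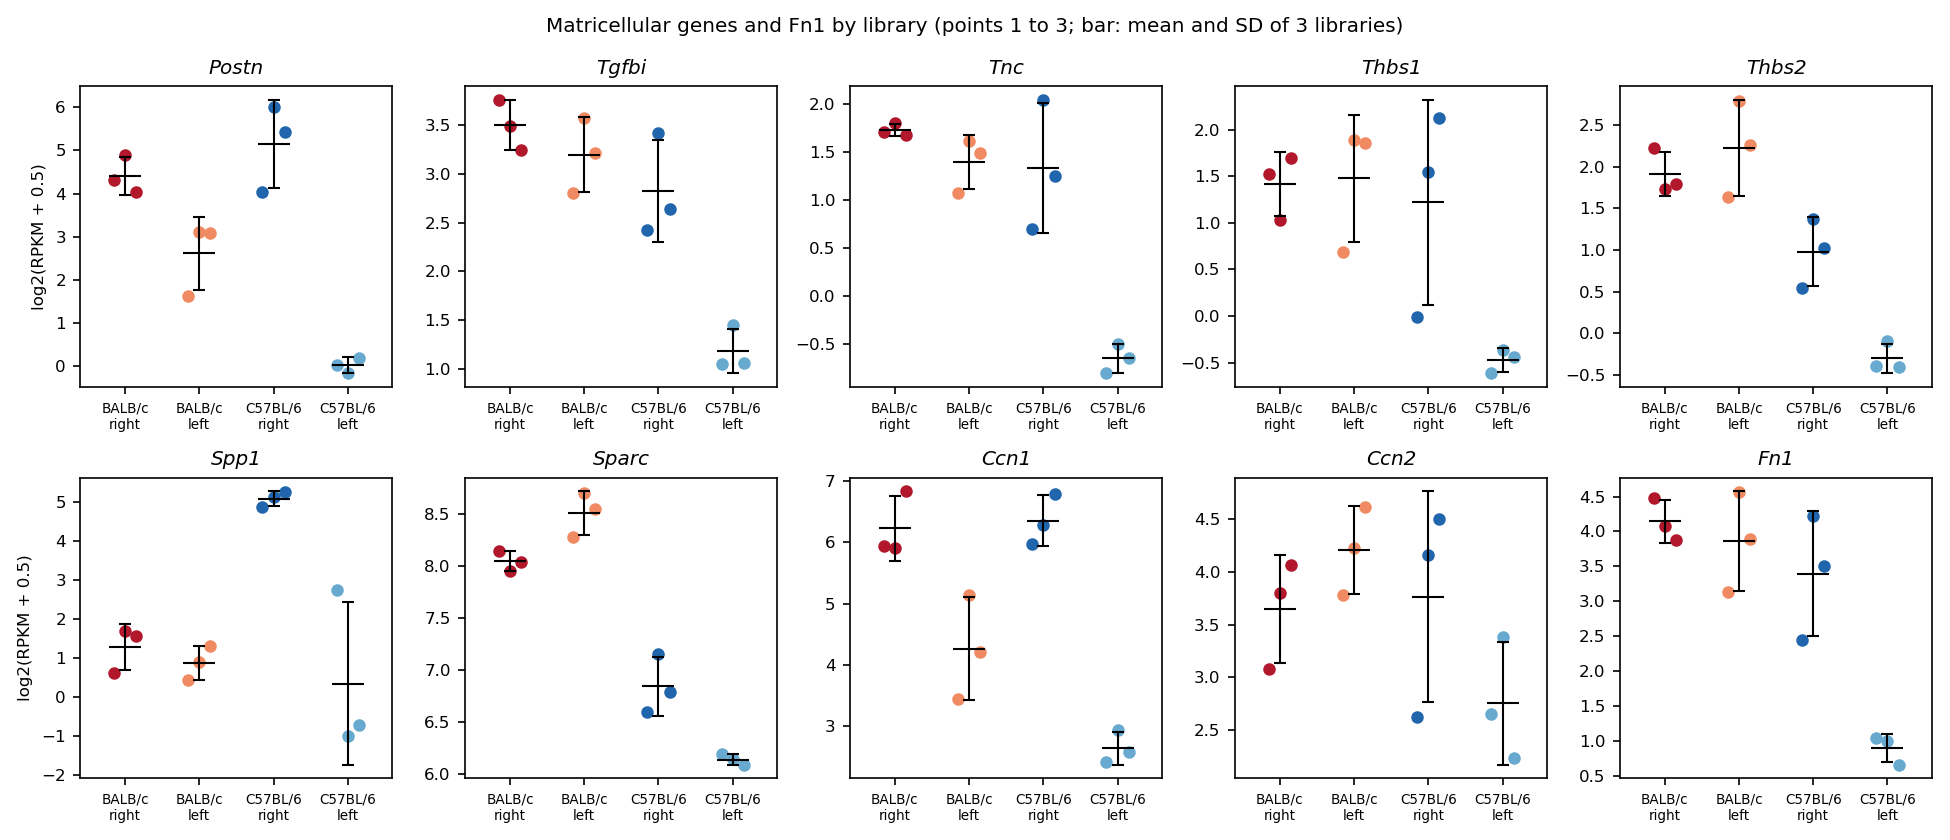
Level of each gene in every library, as log2(RPKM + 0.5) on a scale of its own per gene, for the right and left legs of BALB/c and of C57BL/6, with the mean and SD of 3 libraries. The right legs of C57BL/6 lie above the left legs for 9 genes, all except Ccn2, while the 2 legs of BALB/c overlap for 6.

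Postn and Tgfbi encode the fasciclin-domain proteins periostin, which binds collagen and tenascin, and TGFBI, an integrin-binding protein named for its induction by TGF-β. Postn (NM_015784 in the BALB/c table and NM_001198766 in the C57BL/6 table, mm9 chromosome 3, 54165029 to 54194963, plus strand) had 19.3, 29.3 and 15.9 RPKM in the right legs of BALB/c, against 2.61, 8.21 and 7.98 RPKM in the left. Every right leg lay above every left leg, and the change was 1.80 ± 0.41 (adjusted p = 0.00699), or 1.42 relative to the median gene. In C57BL/6 Postn had 15.8, 64.3 and 42.4 RPKM in the right legs, against 0.526, 0.395 and 0.649 RPKM in the left. The right legs spread over a wide range but all stood far above the left, with a ratio of means of 78.1 and a change of 5.13 ± 0.45 (adjusted p = 4.2e-05), higher than that of 99.7% of the tested genes. Tgfbi (NM_009369, mm9 chromosome 13, 56710947 to 56740720, plus strand) had 13.1, 10.8 and 9.0 RPKM in the right legs of BALB/c, against 6.49, 11.4 and 8.80 RPKM in the left. These legs overlapped, and the value of 0.31 ± 0.22 was not called (adjusted p = 0.286) and was -0.19 after rescaling. In C57BL/6 Tgfbi had 4.87, 10.2 and 5.72 RPKM in the right legs, against 1.56, 2.22 and 1.58 RPKM in the left. The legs did not overlap, and Tgfbi rose by 1.65 ± 0.26 (adjusted p = 7.5e-04).

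Tnc, Thbs1 and Thbs2 encode large glycoproteins of several chains each. Tenascin-C is known from the junction of muscle and tendon and from injured tissue, thrombospondin 1 can activate latent TGF-β and binds CD47 and CD36, and thrombospondin 2 is known for its effects on collagen fibrils and vessels. Tnc (NM_001369214, mm9 chromosome 4, 63620823 to 63707970, minus strand) had 2.76, 2.98 and 2.71 RPKM in the right legs of BALB/c, against 1.61, 2.57 and 2.31 RPKM in the left. The right legs lay just above the left, but the value of 0.34 ± 0.18 was not called (adjusted p = 0.161), lay near the median gene (-0.04 relative to it) and was -0.10 after rescaling. In C57BL/6 Tnc had 1.12, 3.63 and 1.89 RPKM in the right legs, against 0.0750, 0.209 and 0.142 RPKM in the left. Tnc rose by 1.98 ± 0.31 (adjusted p = 8.1e-04), with a ratio of means of 15.6 and no overlap of the legs.

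Thbs1 (NM_001313914, mm9 chromosome 2, 117937612 to 117952869, plus strand) had 2.37, 1.54 and 2.74 RPKM in the right legs of BALB/c, against 1.11, 3.19 and 3.13 RPKM in the left. These legs overlapped, with a value of -0.06 ± 0.34 (adjusted p = 0.892). In C57BL/6 Thbs1 had 0.494, 2.42 and 3.85 RPKM in the right legs, against 0.154, 0.275 and 0.237 RPKM in the left. Right library 1 stood far below the other two but above all left legs, and Thbs1 rose by 1.69 ± 0.48 (adjusted p = 0.0149), a call that was lost without right library 2 (adjusted p = 0.0503), with quantile normalization (adjusted p = 0.0562) and with limma-voom on recovered reads (adjusted p = 0.112). Thbs2 (NM_011581, mm9 chromosome 17, 14802507 to 14831269, minus strand) had 4.16, 2.83 and 2.95 RPKM in the right legs of BALB/c, against 2.60, 6.41 and 4.27 RPKM in the left. The legs overlapped and the value of -0.31 ± 0.29 was not called (adjusted p = 0.406), while after rescaling it was -0.77 and called lower (adjusted p = 0.0381). In C57BL/6 Thbs2 had 0.958, 2.09 and 1.53 RPKM in the right legs, against 0.259, 0.434 and 0.252 RPKM in the left. Thbs2 rose by 1.28 ± 0.21 (adjusted p = 0.00105), with no overlap of the legs.

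Spp1 encodes osteopontin, a secreted integrin ligand and cytokine made by macrophages and bone cells, and Sparc encodes osteonectin, a collagen-binding protein that takes part in collagen assembly. Spp1 (NM_009263, mm9 chromosome 5, 104864130 to 104870072, plus strand) had 1.03, 2.73 and 2.46 RPKM in the right legs of BALB/c, against 0.855, 1.37 and 1.98 RPKM in the left. The legs overlapped and the value of 0.41 ± 0.33 was not called (adjusted p = 0.335). In C57BL/6 Spp1 had 29.0, 34.9 and 37.6 RPKM in the right legs, against 6.20, 0 and 0.113 RPKM in the left. The right legs were close to each other, while left library 1 held 166 reads and the other two left libraries held 0 and 3 reads, at or under the floor of 3 reads. Spp1 rose by 4.75 ± 0.90 (adjusted p = 0.00212), a value that depends on the pseudocount and was 5.95 without left library 1. That library also had the most Schwann cell marker RNA, with 10 markers summing to 200 RPKM, against 9.44 and 27.5 RPKM in left libraries 2 and 3, and their part in the Spp1 level was not tested. Markers of bone and cartilage, another source of Spp1, summed to 0.515 to 1.09 RPKM in the right legs of C57BL/6 and 0.0720 to 0.411 RPKM in the left, with 1 of the 8 at 0 in all right legs and 3 in all left legs, and to 0.546 to 0.719 RPKM in the right legs of BALB/c and 0.764 to 1.09 RPKM in the left.

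Sparc (NM_001290817, mm9 chromosome 11, 55207661 to 55233582, minus strand) was the most abundant of the 10 genes in all 4 groups. It had 283, 248 and 263 RPKM in the right legs of BALB/c, against 311, 415 and 374 RPKM in the left. Every right leg lay below every left leg, and Sparc fell by 0.46 ± 0.16 (change of -0.46, adjusted p = 0.0462). That call was lost without any 1 of the 3 right libraries or of left libraries 2 and 3 (adjusted p 0.0613 to 0.142) and with no filter on low values (adjusted p = 0.0597), and held after rescaling, where the change was -0.99 (adjusted p = 0.00308). In C57BL/6 Sparc had 96.1, 142 and 110 RPKM in the right legs, against 72.5, 70.1 and 67.7 RPKM in the left. Sparc rose there by 0.70 ± 0.14 (adjusted p = 0.00239), but by only 0.18 relative to the median gene, and the value was -0.01 after rescaling (adjusted p = 0.932).

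Ccn1 and Ccn2 encode the CCN-family proteins formerly named CYR61 and CTGF, which bind integrins and heparan sulphate and are classical targets of YAP and TEAD. Ccn1 (NM_010516, mm9 chromosome 3, 145309935 to 145312949, minus strand) had 60.8, 59.8 and 114 RPKM in the right legs of BALB/c, against 10.4, 34.6 and 18.0 RPKM in the left. The legs did not overlap, and Ccn1 rose by 1.97 ± 0.42 (adjusted p = 0.00549), more than 96.5% of the tested genes. In C57BL/6 Ccn1 had 62.5, 77.4 and 111 RPKM in the right legs, against 4.80, 7.15 and 5.44 RPKM in the left. It rose by 3.72 ± 0.22 (adjusted p = 8.0e-06), the smallest adjusted p among the 10, with a ratio of means of 14.4. Ccn2 (NM_010217, mm9 chromosome 10, 24315248 to 24318488, plus strand) had 7.93, 13.4 and 16.2 RPKM in the right legs of BALB/c, against 13.2, 18.2 and 24.0 RPKM in the left. The legs overlapped and the value of -0.56 ± 0.29 was not called (adjusted p = 0.151), while after rescaling it was -1.06 and called lower (adjusted p = 0.0219). In C57BL/6 Ccn2 had 5.66, 17.4 and 22.2 RPKM in the right legs, against 5.77, 9.91 and 4.19 RPKM in the left. Right library 1 lay among the left legs, and the value of 1.01 ± 0.50 was not called (adjusted p = 0.106) but was 1.58 and called without that library (adjusted p = 0.00571).

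Fn1 (NM_001276410 in the BALB/c table and NM_001276411 in the C57BL/6 table, mm9 chromosome 1, 71632047 to 71699808, minus strand) had 21.9, 16.4 and 14.2 RPKM in the right legs of BALB/c, against 8.30, 23.1 and 14.4 RPKM in the left. The legs overlapped, and the value of 0.28 ± 0.34 was not called (adjusted p = 0.513) and was -0.22 after rescaling. In C57BL/6 Fn1 had 4.96, 18.2 and 10.9 RPKM in the right legs, against 1.55, 1.50 and 1.08 RPKM in the left. Fn1 rose by 2.49 ± 0.40 (adjusted p = 9.0e-04), with a ratio of means of 8.23 and no overlap of the legs. For Fn1 and Postn the listed transcript, and with it the length used for RPKM, differed between the strains, at 7836 bases in BALB/c and 7761 in C57BL/6 for Fn1 and 3190 in BALB/c and 3107 in C57BL/6 for Postn.

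**Figure D2:**
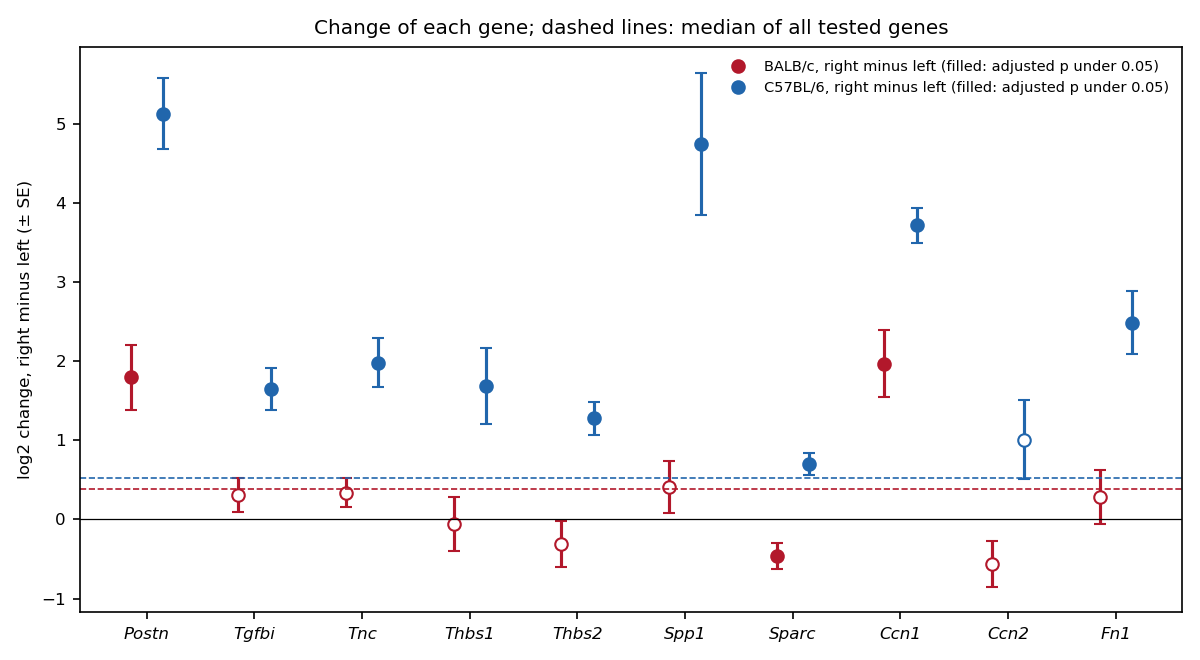
Change of each gene as log2(RPKM + 0.5) of the right legs minus that of the left, with its SE, in BALB/c and C57BL/6; filled points have an adjusted p under 0.05 and dashed lines mark the median of all tested genes (0.38 in BALB/c, 0.52 in C57BL/6). All C57BL/6 values are positive, with 9 called, while in BALB/c Postn and Ccn1 rose, Sparc fell and the other 7 were not called; after rescaling the values of Tnc, Tgfbi and Fn1 in BALB/c and of Sparc in C57BL/6 lie just below 0.

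Counted by legs that did not overlap, 3 of the 10 genes in BALB/c, Postn, Tnc and Ccn1, had every right leg above every left leg, and Sparc had every right leg below, where 48.1% and 10.4% of all tested genes did. In C57BL/6 9 of the 10 had every right leg above every left leg, where 66.2% of all tested genes did and 9.57% had every right leg below. Each of these counts lies within a transcriptome in which right legs were often higher. The size of the C57BL/6 changes set Postn, Spp1 and Ccn1 above 99.1% to 99.7% of the tested genes, Fn1 above 97.6%, Tnc above 95.6%, Thbs1 above 93.5%, Tgfbi above 93.0%, Thbs2 above 86.2%, Ccn2 above 77.8% and Sparc above 61.7%. In BALB/c Postn stood above 95.3% and Ccn1 above 96.5%, while the other 8 lay between 7.95% for Ccn2 and 52.1% for Spp1.

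The change was smaller in BALB/c than in C57BL/6, in signed value, for all 10 genes, with a median difference of -1.70 on the log2 scale beside -0.14 for all tested genes. When the C57BL/6 change was subtracted from that of BALB/c in 1 fit over all 12 libraries, 6 of the 10 were called lower, where 4.33% of all tested genes were and 1.76% were called higher. The difference was -4.34 for Spp1 (95% interval -6.65 to -2.02, adjusted p = 0.0347) and -3.33 for Postn (-4.81 to -1.85, adjusted p = 0.0182). It was -2.21 for Fn1 (-3.48 to -0.94, adjusted p = 0.0464), -1.64 for Tnc (-2.48 to -0.81, adjusted p = 0.0293) and -1.59 for Thbs2 (-2.45 to -0.73, adjusted p = 0.0365). Sparc, which fell in BALB/c and rose in C57BL/6 before rescaling, had a smaller difference of -1.16 with a narrow interval (-1.61 to -0.72, adjusted p = 0.0107). The remaining 4 were not called: Tgfbi had -1.34 (-2.14 to -0.54, adjusted p = 0.0533), Ccn1 -1.75 (-2.93 to -0.57, adjusted p = 0.0761), Thbs1 -1.75 (-3.18 to -0.33, adjusted p = 0.129) and Ccn2 -1.57 (-2.97 to -0.16, adjusted p = 0.162). After rescaling 7 were called lower, where 3.52% of all tested genes were and 3.72% were called higher, with Tgfbi added at an adjusted p of 0.0491.

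Few of these calls on single genes held when 1 of the 12 libraries was left out. Sparc was called in all 12 such fits and Postn in 11, with the exception of the fit without C57BL/6 right library 3 (adjusted p = 0.0516). Tnc and Spp1 were called in 4 each, Thbs2 in 3 and Fn1 in 2, while the differences kept their sign in all 12 fits for all 10 genes. With a pseudocount of 1, Tnc (adjusted p = 0.0556), Thbs2 (0.0572) and Fn1 (0.0595) were not called, and with no filter Thbs2 (0.0511) and Fn1 (0.0628) were not. Spp1 was not called with a pseudocount of 0.1 (0.0601) or quantile normalization (0.0527). The number called ranged from 1 without C57BL/6 right library 3 to 9 without C57BL/6 right library 1. It was 2 without BALB/c right library 3, BALB/c left library 2 or 3, or C57BL/6 left library 2 or 3. The number was 3 without BALB/c right library 1, C57BL/6 right library 2 or C57BL/6 left library 1, 4 without BALB/c right library 2 and 8 without BALB/c left library 1. Calls over all tested genes varied among these fits as well. Genes called lower numbered 613 of 14165 with all libraries and 226 of 14103 without C57BL/6 right library 3. Without C57BL/6 right library 1 they numbered 597 of 14094, and without BALB/c left library 1 they numbered 1028 of 14170. Without a C57BL/6 left library they numbered 233 to 282.

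**Figure D3:**
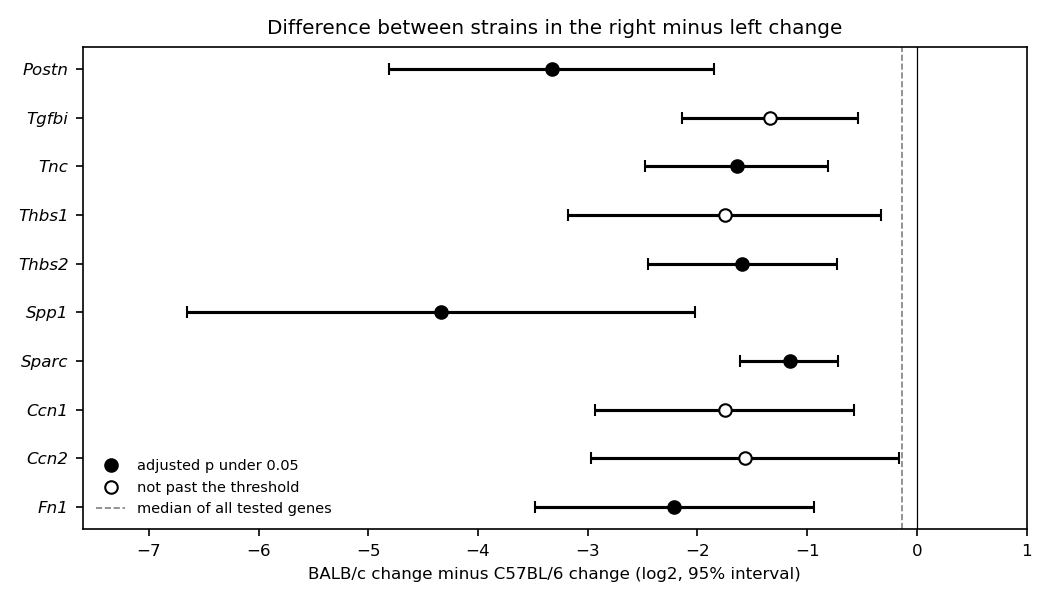
Difference between the strains for each gene, with the C57BL/6 change subtracted from the BALB/c change (log2), with its 95% interval; filled points have an adjusted p under 0.05 and the dashed line marks the median of all tested genes (-0.14). All 10 values lie below 0, between -4.34 for Spp1 and -1.16 for Sparc, and 6 were called.

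Set side by side, the left legs of the 2 strains differed more than the right. The strains' tables were normalized separately, so these levels were not tested. Every BALB/c left leg lay above every C57BL/6 left leg for 9 of the 10 genes, all except Spp1, where 34.6% of the genes tested in both tables did. The ratio of the BALB/c left mean to the C57BL/6 left mean was 15.2 for Tnc, 14.0 for Thbs2, 12 for Postn, 11.2 for Thbs1, 11.0 for Fn1, 5.23 for Sparc, 4.98 for Tgfbi, 3.62 for Ccn1, 2.78 for Ccn2 and 0.666 for Spp1. The median of these ratios was 8.14, beside 1.16 over all genes tested in both tables. In the right legs the same ratio of BALB/c to C57BL/6 had a median of 1.13, beside 1.03 over all genes, and ran between 0.526 for Postn and 2.28 for Sparc, with Spp1 at 0.0614. Spp1 was the exception among the 10, with every BALB/c right leg below every C57BL/6 right leg, where 18.2% of genes did so, while Sparc and Thbs2 had every BALB/c right leg above, where 20.8% did.

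By level, Sparc led in each group, with 265 ± 17.7 RPKM in the right legs of BALB/c, 367 ± 52.3 in the left legs of BALB/c, 116 ± 23.4 in the right legs of C57BL/6 and 70.1 ± 2.38 in the left legs of C57BL/6 (mean ± SD, n = 3 libraries each). Ccn1 came next in both right groups, with 78.2 ± 31.1 RPKM in BALB/c and 83.7 ± 25.0 RPKM in C57BL/6, where its spread overlapped those of Sparc and of Postn at 40.9 ± 24.3 RPKM. Below it, Postn, Fn1, Ccn2 and Tgfbi had means of 21.5, 17.5, 12.5 and 11.0 RPKM in the right legs of BALB/c, in that order, and each overlapped its neighbour within 1 SD (SDs of 2.06 to 6.94 RPKM). In the left legs of C57BL/6 Ccn2 at 6.62 ± 2.96 RPKM and Ccn1 at 5.80 ± 1.22 RPKM lay within each other's spread below Sparc. Tnc, Thbs1 and Thbs2 had the lowest means there, with 0.142 ± 0.0670 RPKM for Tnc, 0.222 ± 0.0619 RPKM for Thbs1 and 0.315 ± 0.103 RPKM for Thbs2.

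In 2 of the 4 groups 1 library was the lowest for all 10 genes. BALB/c left library 1 was the lowest of its group for 10 of the 10 genes, beside 51.8% of all tested genes, and C57BL/6 right library 1 was the lowest of its group for 10 of the 10, beside 35.3%. BALB/c left library 2 was the highest of its group for 8, beside 54.9%. On the log2 scale the mean deviation of the 10 genes from their group means was -0.57, 0.39 and 0.19 in left libraries 1 to 3 of BALB/c, and -0.68, 0.44 and 0.23 in right libraries 1 to 3 of C57BL/6. The 15 fibroblast markers deviated by -0.31, 0.33 and -0.02 in the same BALB/c left libraries and by -0.41, 0.43 and -0.02 in the C57BL/6 right libraries. For the 8 tendon markers these values were -0.41, 0.40 and 0.01 in BALB/c and -0.73, 0.68 and 0.05 in C57BL/6, and for the 17 macrophage markers they were -0.20, 0.31 and -0.11 in BALB/c and -0.30, 0.34 and -0.05 in C57BL/6. The part of these cell types in the levels of the 10 genes was not tested.

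**Figure D4:**
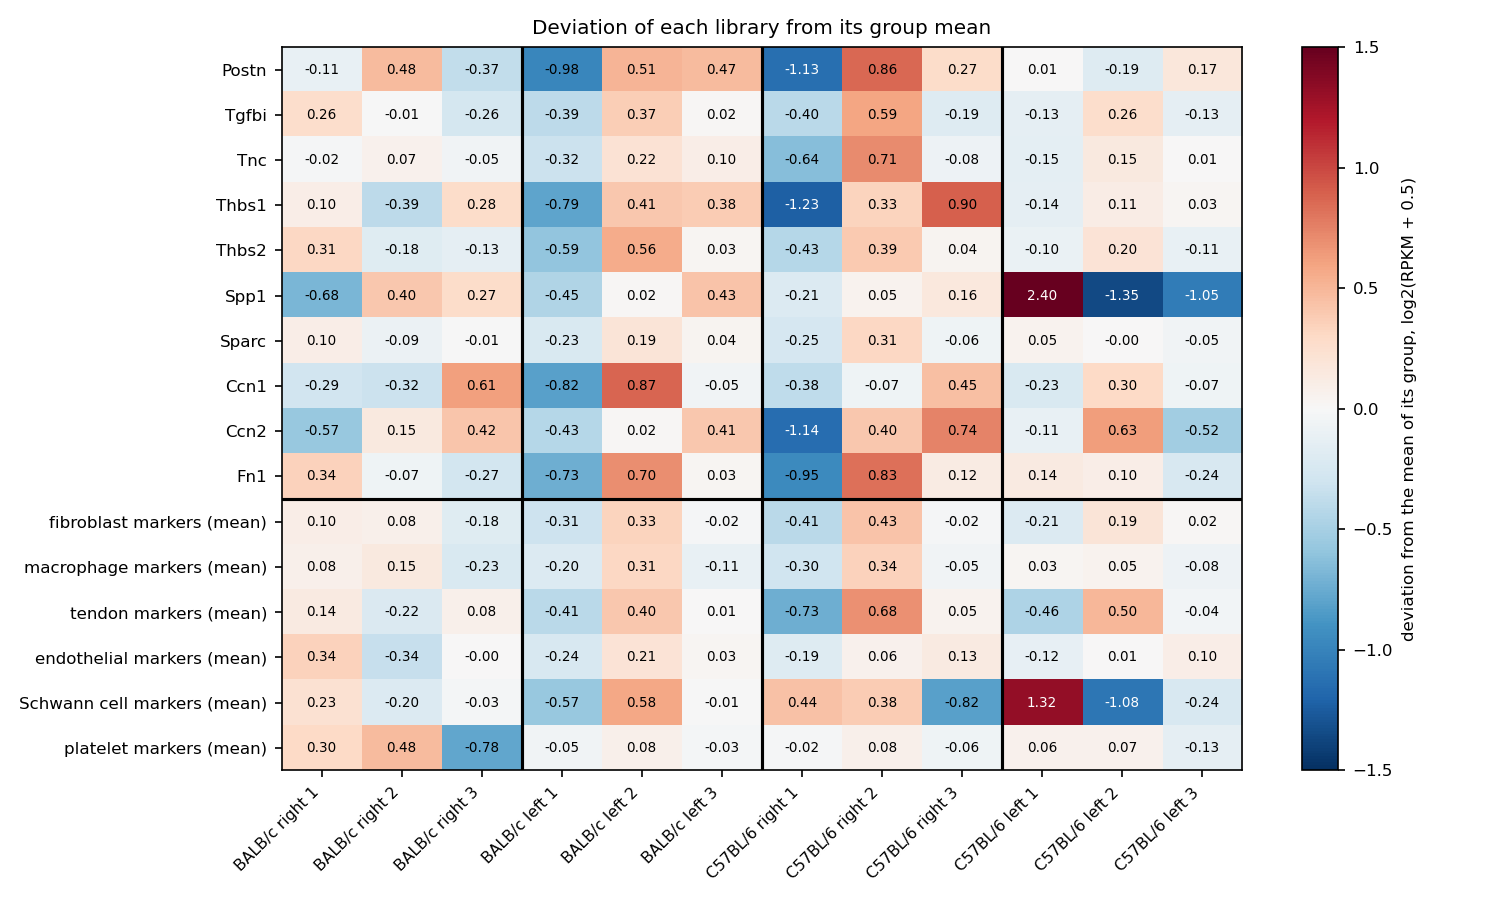
Deviation of each library from the mean of its group on the log2(RPKM + 0.5) scale, for the 10 genes (upper rows) and as means over marker lists (lower rows); colours end at 1.5 in either direction. BALB/c left library 1 and C57BL/6 right library 1 are below their group means for all 10 genes, and Spp1 and the Schwann cell markers are high in C57BL/6 left library 1, at 2.40 and 1.32.

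Summed markers of fibroblasts and of macrophages were higher in every right leg than in every left leg of C57BL/6, as 9 of the 10 genes were. The same held there for the sums of tendon, platelet and, at low levels, bone and cartilage markers. In BALB/c it held for the macrophage and platelet markers. The 15 fibroblast markers summed to 1274 to 1474 RPKM in the right legs of BALB/c and 956 to 1427 RPKM in the left, and to 439 to 762 RPKM in the right legs of C57BL/6 and 167 to 289 RPKM in the left. Their median change was 0.50 in BALB/c and 1.13 in C57BL/6. In BALB/c 8 of the 15 were called higher and 2 lower, and in C57BL/6 14 higher. Among all tested genes 42.5% were higher and 7.67% lower in BALB/c, and 63.6% higher and 8.56% lower in C57BL/6. After rescaling 1 of the 15 was higher and 4 lower in BALB/c, beside 21.8% and 19.2% of all tested genes. In C57BL/6 7 were then higher and 1 lower, beside 28.2% and 26.6%. Pi16 rose in BALB/c, with 48.7 ± 19.0 RPKM in the right legs and 18.6 ± 11.5 RPKM in the left (change 1.46, not called after rescaling, adjusted p = 0.111), and in C57BL/6, with 21.3 ± 9.07 RPKM in the right legs and 2.28 ± 0.484 RPKM in the left (change 2.90). Col1a2, a chain of collagen I, fell in BALB/c to 98.8 ± 5.92 RPKM in the right legs, against 184 ± 32.8 RPKM in the left (change -0.88). For Cd34, Col1a1, Col1a2 and Col3a1 the change was called lower in BALB/c than in C57BL/6, where 4.33% of all tested genes were. The difference was -2.75 ± 0.33 for Col1a1 (adjusted p = 0.00225) and -1.64 ± 0.40 for Col3a1 (adjusted p = 0.0337). Over the 15 fibroblast markers the median difference between the strains was -1.14, beside -1.70 for the 10 genes and -0.14 for all tested genes.

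Macrophage markers summed to 205 to 330 RPKM in the right legs of BALB/c and 68.3 to 113 RPKM in the left, and to 102 to 201 RPKM in the right legs of C57BL/6 and 11.0 to 14.4 RPKM in the left. Of the 17, 12 were called higher in BALB/c, with Trem2 at 2.34, and 17 in C57BL/6, with Cd68 at 4.52. The medians were 1.02 in BALB/c and 1.57 in C57BL/6. Among all tested genes 42.5% were called higher in BALB/c and 63.6% in C57BL/6. After rescaling 10 of the 17 were higher in BALB/c and 17 in C57BL/6, beside 21.8% and 28.2% of all tested genes. The median difference between the strains was -0.76 over the 17, beside -0.14 for all tested genes. The change was called lower in BALB/c for 3 of them, Cd68 (-2.89), Csf1r and Lyz2, where 4.33% of all tested genes were, and higher for none. Their part in the Spp1 level was not tested. Tendon markers summed to 189 to 249 RPKM in the right legs of BALB/c and 172 to 289 RPKM in the left, and to 84.1 to 180 RPKM in the right legs of C57BL/6 and 7.70 to 19.9 RPKM in the left. The median change of the 8 was -0.50 in BALB/c and 1.26 in C57BL/6. Among them, Scx, a tendon transcription factor, rose in both strains, by 3.34 in BALB/c and 4.45 in C57BL/6, and Fmod fell by 0.87 in BALB/c (change of -0.87). In BALB/c 1 was called higher and 1 lower, beside 42.5% and 7.67% of all tested genes, and in C57BL/6 5 were called higher, beside 63.6%. After rescaling 1 was higher and 6 lower in BALB/c, beside 21.8% and 19.2%, and 2 were higher in C57BL/6, beside 28.2%. Over the 8 tendon markers the median difference between the strains was -1.55, beside -1.70 for the 10 genes and -0.14 for all tested genes. The change was called lower in BALB/c for 1 of them, Tnmd (-2.58, adjusted p = 0.0213), where 4.33% of all tested genes were.

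The 10 endothelial markers summed to 63.3 to 105 RPKM in the right legs of BALB/c and 86.4 to 122 RPKM in the left, and to 50.1 to 64.1 RPKM in the right legs of C57BL/6 and 54.7 to 65.3 RPKM in the left. Of these 10, 1 was called higher and 2 lower in BALB/c, beside 42.5% and 7.67% of all tested genes. In C57BL/6 3 were called lower, beside 8.56%. The median changes were -0.20 in BALB/c and -0.04 in C57BL/6. After rescaling 8 were lower in BALB/c and 9 in C57BL/6, beside 19.2% and 26.6% of all tested genes. Kdr fell in both strains (-1.37 in BALB/c, -0.48 in C57BL/6), and Cldn5 rose in BALB/c (0.70, adjusted p = 0.00887), a call lost after rescaling (adjusted p = 0.324). The 10 Schwann cell markers summed to 40.3 to 62.3 RPKM in the right legs of BALB/c and 52.2 to 175 RPKM in the left, and to 20.9 to 76.8 RPKM in the right legs of C57BL/6 and 9.44 to 200 RPKM in the left. Ngfr, a receptor of denervated Schwann cells, rose in both strains (1.96 in BALB/c, 1.28 in C57BL/6). The 8 platelet markers, relevant because platelets store thrombospondin 1, summed to 27.1 to 59.1 RPKM in the right legs of BALB/c and 7.20 to 10.8 RPKM in the left, and to 11.0 to 16.4 RPKM in the right legs of C57BL/6 and 1.84 to 2.94 RPKM in the left. Erythroid markers reached 12578, 27238 and 430 RPKM in the right legs of BALB/c, against 1362, 1891 and 266 RPKM in the left, and were 271 to 365 RPKM in the right legs of C57BL/6 and 171 to 344 RPKM in the left. The share of RPKM that they took therefore differed most among the right libraries of BALB/c. No marker of fibroblasts, macrophages, tendon, endothelium, Schwann cells, platelets or red cells was at 0 in all libraries of a group, and the part of these cells in the levels of the 10 genes was not tested.

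Other matricellular and related genes, some of other protein families, were 32 in all, of which 27 were tested. They had a median change of 0.08 in BALB/c and 0.94 in C57BL/6. In BALB/c 9 rose and 3 fell, and in C57BL/6 19 rose and 1 fell, with 4 higher and 10 lower in BALB/c and 13 higher and 3 lower in C57BL/6 after rescaling. Of all tested genes, 42.5% were called higher and 7.67% lower in BALB/c and 63.6% higher and 8.56% lower in C57BL/6. After rescaling these shares were 21.8% higher and 19.2% lower in BALB/c and 28.2% higher and 26.6% lower in C57BL/6, and they are the background of the 4 lists that follow as well. Lgals3, which encodes galectin 3, a lectin of activated macrophages, had 84.8 ± 35.4 RPKM in the right legs of BALB/c and 2.99 ± 0.903 RPKM in the left (change 4.54 ± 0.34, adjusted p = 5.8e-05). In C57BL/6 Lgals3 had 195 ± 38.8 RPKM in the right legs and 1.38 ± 0.186 RPKM in the left (change 6.69 ± 0.15, adjusted p = 2.7e-07). Ccn3 fell in BALB/c, with 1.10 ± 0.499 RPKM in the right legs and 2.29 ± 0.615 RPKM in the left, and Vwa1, a matrix protein gene, fell in C57BL/6, with 4.66 ± 0.432 RPKM in the right legs and 8.13 ± 1.22 RPKM in the left. The change of 4 was called lower in BALB/c than in C57BL/6, Thbs4 (-2.41), Lgals3 (-2.14), Fstl1 (-1.42) and Ecm1 (-1.06). A lower change was called for 4.33% of all tested genes, which is the background of the 4 lists that follow too.

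Receptors of these proteins, integrins, syndecans and others, numbered 26, of which 24 were tested in BALB/c and 23 in C57BL/6, with median changes of 0.32 in BALB/c and 0.80 in C57BL/6. In BALB/c 11 rose and 2 fell, and in C57BL/6 16 rose and 1 fell, with 5 higher and 6 lower in BALB/c and 11 higher and 3 lower in C57BL/6 after rescaling. The shares higher lie near the 42.5% of all tested genes in BALB/c and 63.6% in C57BL/6. Itga9, whose integrin binds tenascin-C and osteopontin, rose in both strains. It had 10.6 ± 1.70 RPKM in the right legs of BALB/c and 0.983 ± 0.186 RPKM in the left (change 2.90 ± 0.18, adjusted p = 3.0e-05), and 7.10 ± 0.861 RPKM in the right legs of C57BL/6 and 0.609 ± 0.0724 RPKM in the left (change 2.77 ± 0.11, adjusted p = 2.1e-06). Itgb6, whose integrin activates latent TGF-β, fell in BALB/c, with 2.35 ± 0.291 RPKM in the right legs and 5.88 ± 0.467 RPKM in the left. The fibronectin receptor chain Itga4 fell in both strains. In C57BL/6 it had 0.127 ± 0.0277 RPKM in the right legs and 0.858 ± 0.225 RPKM in the left. In BALB/c it had 0.213 ± 0.0839 RPKM in the right legs and 0.794 ± 0.332 RPKM in the left (change -0.83 ± 0.22, adjusted p = 0.0134). Between the strains, Itgav (-1.08), Itgb6 (-0.95), Sdc1 (-0.78) and Lrp1 (-1.42) had lower changes in BALB/c.

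Genes of the TGF-β pathway, 22 ligands, latency proteins, receptors, SMADs and targets, all tested, gave 14 higher in BALB/c and 15 higher and 1 lower in C57BL/6, with median changes of 0.76 in BALB/c and 0.86 in C57BL/6. After rescaling 10 were higher and 5 lower in BALB/c and 11 higher and 3 lower in C57BL/6. Tgfb1, the ligand gene, had 84.4 ± 17.2 RPKM in the right legs of BALB/c and 6.22 ± 2.42 RPKM in the left (change 3.71 ± 0.28, adjusted p = 5.7e-05). In C57BL/6 Tgfb1 had 62.8 ± 11.1 RPKM in the right legs and 2.04 ± 0.223 RPKM in the left (change 4.63 ± 0.14, adjusted p = 6.6e-07). Ski, a repressor of SMADs, fell in C57BL/6, with 6.07 ± 0.622 RPKM in the right legs and 8.06 ± 0.334 RPKM in the left. For the difference between the strains limma called 0 of these 22, with 1 higher and 2 lower at an unadjusted p under 0.05 and 0 called by limma-voom on recovered reads. The difference for Tgfb1 was -0.92 ± 0.34 (adjusted p = 0.127), which does not show that the strains responded alike.

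Genes of YAP, TAZ, TEAD and their regulators and targets, 26 in all and all tested, had median changes of 0.26 in BALB/c and 0.70 in C57BL/6. They gave 9 higher and 1 lower in BALB/c and 17 higher and 3 lower in C57BL/6, with 5 higher and 8 lower in BALB/c and 8 higher and 6 lower in C57BL/6 after rescaling. The share higher lies below the 42.5% of all tested genes in BALB/c and near the 63.6% in C57BL/6. Ankrd1, a muscle ankyrin-repeat gene and YAP target, had 260 ± 109 RPKM in the right legs of BALB/c and 2.82 ± 1.51 RPKM in the left (change 6.29 ± 0.43, adjusted p = 4.2e-05). In C57BL/6 Ankrd1 had 764 ± 275 RPKM in the right legs and 2.55 ± 1.26 RPKM in the left (change 7.98 ± 0.34, adjusted p = 2.3e-06). Crim1 fell in both strains, with 1.98 ± 0.765 RPKM in the right legs of BALB/c and 6.28 ± 1.49 RPKM in the left, and with 2.15 ± 0.352 RPKM in the right legs of C57BL/6 and 6.20 ± 0.498 RPKM in the left. Changes of 4 were lower in BALB/c than in C57BL/6, Axl (-1.41), Tead4 (-1.31), Tead1 (-1.24) and Mob1b (-0.95).

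Enzymes that cut or cross-link these proteins and their inhibitors, 26 genes of which 21 were tested in BALB/c and 20 in C57BL/6, had median changes of 0.21 in BALB/c and 0.87 in C57BL/6. They gave 8 higher and 1 lower in BALB/c and 15 higher and 2 lower in C57BL/6. After rescaling 6 were higher and 6 lower in BALB/c and 8 higher and 4 lower in C57BL/6. Timp1, an inhibitor of matrix metalloproteinases, had 15.5 ± 7.93 RPKM in the right legs of BALB/c and 1.45 ± 0.618 RPKM in the left (change 2.96 ± 0.40, adjusted p = 6.0e-04). In C57BL/6 Timp1 had 27.9 ± 6.17 RPKM in the right legs and 0.308 ± 0.0742 RPKM in the left (change 5.11 ± 0.17, adjusted p = 9.6e-07). Loxl2, a collagen cross-linking enzyme, fell in BALB/c (2.43 ± 0.590 RPKM in the right legs and 4.47 ± 0.951 RPKM in the left), and Timp3 fell in C57BL/6 (11.2 ± 1.03 RPKM in the right legs and 19.3 ± 1.89 RPKM in the left). The changes of Timp1 (-2.15), Loxl2 (-1.66) and Loxl1 (-1.22) were lower in BALB/c than in C57BL/6.

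The genes most like each of the 10 were sought among 10209 others that averaged 1 RPKM or more in both tables, by Pearson's r of log2(RPKM + 0.5) over the 12 libraries after the mean of each strain was subtracted. The points share their libraries and the difference between the legs, so r is a description. Bgn was nearest to Postn (r = 0.995), Col5a2 to Tnc (0.988), Fkbp10 to Tgfbi (0.987) and Fbn1 to Fn1 (0.990), with Fxyd6 (0.991), Olfml3 (0.987), Islr (0.986) and Fstl1 (0.988) second in the same order. Foxred1 (0.964) and Cd34 (0.955) were nearest to Sparc, Clstn1 (0.973) and Agbl1 (0.972) to Thbs2, and Lima1 (0.964) and Zfp36l2 (0.921) to Thbs1. Nearest to Ccn1 were Macf1 and Rptor (0.989 each), nearest to Spp1 were Insr (0.922) and Mthfd2 (0.921), and Fos (0.814) was among the nearest to Ccn2. Bgn, the nearest to Postn, averaged 84.8 RPKM in the right legs of BALB/c and 39.1 RPKM in the left. In C57BL/6 it averaged 70.1 RPKM in the right legs and 7.42 RPKM in the left. Among the 45 pairs of the 10 genes themselves r ran between 0.45 for Ccn2 with Ccn1 and 0.98 for Tgfbi with Tnc and with Fn1.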

How the data were processed

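The authors deposited RPKM values in 1 table per strain, normalized separately; the column names say FPKM. Exon reads were counted with HOMER on both strands against its mm9 annotation, with 1 transcript kept per gene, per the file headers, so antisense reads are not separated. The submitters' processing notes name the tools HISAT2, HOMER and DESeq2, with neither version nor role, and the builds GRCm38 and mm10; the build used for alignment is otherwise not given in the sources used here. The third BALB/c library of each leg has another number in its column than in its title and was matched through its description. No sample column was left unused.

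Values became log2(RPKM + 0.5). Genes averaging 0.1 RPKM or more in a table's 6 libraries (14819 in BALB/c, 14551 in C57BL/6) entered two-sided limma tests (limma 3.58.1, R 4.3.3, eBayes with a mean-variance trend), and p-values were adjusted by Benjamini-Hochberg over all of them. The strain contrast used all 12 libraries and the 14165 genes tested in both tables. Multiplying RPKM by length and scaling total gave whole reads, within 0.1 read, for 99.6% to 99.8% of values, with 14826936 to 17323385 reads per library in the listed genes. The procedure was also run on simulated counts, with a smaller spread among libraries than many of these genes had, which does not test the calls given here.

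The 10 genes and all lists were chosen with earlier results of these data known. Of each list the text names the called gene with the largest change per direction and strain. List genes named for a difference between the strains, and the levels given for them, were chosen after their values were seen. A few genes taken by these rules are not reported here. Lists overlap in a few genes: Dmp1 and Ibsp stand in the list of other matricellular and related genes and in the bone list. Alternatives were pseudocounts of 0.1 and 1, no filter, a filter of 1 RPKM, median-of-ratios, TPM and quantile scaling, no trend, a replicate block, a spread shared over 12 libraries, leaving out each library and limma-voom on recovered reads.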

Additional observations from a re-analysis of the deposited data

Results flagged for a closer look

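A difference between the strains singled out 6 of the 10 genes. It was tested with limma over 12 libraries by subtracting the C57BL/6 change from the BALB/c change. All 6 were called lower, where 4.33% of all tested genes were called lower and 1.76% higher. The difference was -3.33 for Postn, -1.64 for Tnc, -4.34 for Spp1, -1.16 for Sparc, -1.59 for Thbs2 and -2.21 for Fn1 on the log2 scale. Of the 12 fits with 1 library left out, Sparc was called in 12 and Postn in 11. Tnc and Spp1 were called in 4 each, Thbs2 in 3 and Fn1 in 2. For Sparc the change was -0.46 in BALB/c and 0.70 in C57BL/6. Groups of 3 libraries are too small for a test of single outlying samples.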

How the results depend on the processing

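The count of genes called higher was 2 in BALB/c under all alternatives run, and in C57BL/6 it was 9, with 8 to 10 when 1 library was left out, 8 with median-of-ratios rescaling or a filter of 1 RPKM and 7 with quantile normalization or limma-voom on recovered reads, an alternative chosen after seeing the data. The count called lower in BALB/c, 1 as reported, was 0 with no filter and 3 with median-of-ratios rescaling, quantile normalization or limma-voom, and 0 to 1 when a library was left out. The count with a lower change in BALB/c than in C57BL/6, 6 as reported, was 3 with a pseudocount of 1, 4 to 7 under the other settings and 1 to 9 when a library was left out. Over all tested genes, 613 were called lower with all libraries and 226 to 1028 when a library was left out. Values not called in BALB/c changed sign for Tnc (-0.10 with median-of-ratios, -0.07 with quantiles, -0.13 with limma-voom), Tgfbi (-0.19, -0.28 and -0.21 in the same order), Fn1 (-0.22, -0.33 and -0.23, and -0.08 to 0.63 when a library was left out, with -0.08 without left library 1), Spp1 (-0.05 with limma-voom) and Thbs1 (-0.46 to 0.14 when a library was left out, with 0.13 without right library 2, 0.14 without left library 2 and 0.13 without left library 3). Sparc in C57BL/6 became -0.01 with median-of-ratios rescaling and -0.02 with limma-voom. The cause of these shifts was not tested. With the replicate number as a block (replicate block), 2 genes were called higher and 1 lower in BALB/c, 9 higher in C57BL/6 and 5 lower in the strain contrast; the 1 in BALB/c was then Ccn2 (adjusted p = 0.0190) and not Sparc (0.0722), and in the strain contrast Thbs2 (0.0592) and Fn1 (0.0635) were no longer called while Tgfbi was (0.0438). Right and left libraries of the same number correlated at 0.007 to 0.239 in 6 pairs, 3 of them over 0.1. Those of different numbers within a strain correlated at -0.192 to 0.111. These values do not settle whether the numbers pair the legs. The labels state no pairing, so the main tests did not use the numbers. Planned count tests were not run, since the deposited unit is RPKM. Depth limits the lowest levels, such as Spp1 in the left legs of C57BL/6 with 0 and 3 reads in libraries 2 and 3.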
